A study of Mus musculus with 12 samples.

Results

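The genes described here encode the lipid droplet proteins of the CIDE and perilipin families, Cidea, Cideb, Cidec, Plin1, Plin2, Plin3, Plin4 and Plin5. Chromatin accessibility at these genes was measured by ATAC-seq, in which a transposase cuts open chromatin and the reads in a region count the cuts. Members were all regions of open chromatin (peaks) that the deposited tables assign to 1 of the 8 gene symbols. They number 26 of 58558 peaks in brown adipose tissue (BAT), over 8 genes, and 16 of 39558 peaks in inguinal white adipose tissue (iWAT), over 7 genes, since no iWAT peak is assigned to Cideb. In BAT they divide into 5 peaks of Cidea, 1 of Cideb, 2 of Cidec, 3 of Plin1, 10 of Plin2, 2 of Plin3, 2 of Plin4 and 1 of Plin5. In iWAT they divide into 5 peaks of Cidea, 1 of Cidec, 2 of Plin1, 4 of Plin2, 1 of Plin3, 2 of Plin4 and 1 of Plin5.

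The study compared mice that lack BAF60a (encoded by Smarcd1), a subunit of the BAF chromatin-remodeling complexes, in their adipocytes with littermates that keep it. All mice were C57BL/6 and carried loxP-flanked BAF60a alleles (flox/flox). Mice of the AKO group also carried an Adiponectin-Cre transgene, which is active in white and brown adipocytes alike and not in the other cells of the tissue, while flox mice had no Cre. BAT came from 3 flox and 3 AKO mice, each frozen on its own, and the sources used here give neither their age nor the temperature they were kept at. iWAT came from mice of 6 to 8 months acclimated to 10 °C for 7 days, and there the fat of 6 mice was pooled per genotype and split into 3 aliquots. The 3 iWAT samples of a genotype are therefore technical replicates of 1 pool, and their p-values measure the spread between aliquots and not between mice.

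CIDE and perilipin proteins sit on the surface of lipid droplets. CIDE proteins gather where droplets touch and pass triglyceride from one to the other, so that droplets grow. CIDEA is abundant in brown and beige adipocytes and is often used as a marker of them, CIDEC is typical of white adipocytes with a single large droplet, and CIDEB is best known in liver. Perilipins coat the droplet and control the access of lipases. PLIN1 does so in adipocytes, where it holds the lipase co-activator ABHD5 until adrenergic signalling releases it, PLIN2 covers droplets in most cell types, PLIN3 and PLIN4 move from the cytosol onto small new droplets, and PLIN5 is typical of oxidative tissues, where it ties droplets to mitochondria. Several of these genes are textbook targets of PPARγ, the nuclear receptor of adipocyte differentiation, which binds direct repeats of its half-site spaced by a single base (DR1).

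Stretches of the peaks to which the results below return are shown first, from RefSeq's GRCm38.p6 genome (the build mm10 of the files), each read 5′ to 3′ on the strand of its gene. In the first, the second and the last, capitals mark matches to the DR1 consensus, the half-site AGGTCA given 2 times with 1 free base between, with at most 3 mismatches on either strand. The Plin1 stretch lies 2.04 kb upstream of the start and is open in both depots. The Plin2 stretch 20.2 kb upstream is open in both depots. Its BAT peak had an AKO mean 39.9% below flox, the largest such share among the BAT members. In the third, from intron 7 and exon 8 of Plin2, capitals mark a C/EBP match (TTGCNNAA), and the stretch is shown because AKO lay below flox there in BAT and above it in iWAT. The fourth, 17.9 kb downstream of the Plin2 start, comes from the peak with the smallest p-value of the BAT members. These 300 bases hold no match to any of the 4 motifs searched, while the rest of that peak holds a C/EBP match. The last lies upstream of Plin4, in the wide peak over its start.
Plin1 upstream, chr7:79734667-79734966, - strand: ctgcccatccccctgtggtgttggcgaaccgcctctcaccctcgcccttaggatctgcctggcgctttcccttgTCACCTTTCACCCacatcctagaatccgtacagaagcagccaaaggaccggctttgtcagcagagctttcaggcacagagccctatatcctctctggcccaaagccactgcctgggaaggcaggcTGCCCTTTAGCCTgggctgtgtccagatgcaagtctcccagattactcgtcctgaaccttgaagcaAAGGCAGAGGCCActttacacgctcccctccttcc
Plin2 upstream, chr4:86690069-86690368, - strand: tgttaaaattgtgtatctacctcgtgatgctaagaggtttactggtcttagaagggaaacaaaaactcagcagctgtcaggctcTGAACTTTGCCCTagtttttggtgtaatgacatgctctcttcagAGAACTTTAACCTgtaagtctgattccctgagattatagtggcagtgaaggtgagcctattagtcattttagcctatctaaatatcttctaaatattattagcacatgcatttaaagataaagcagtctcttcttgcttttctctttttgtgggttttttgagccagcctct
Plin2 intron 7 and exon 8, chr4:86657239-86657538, - strand: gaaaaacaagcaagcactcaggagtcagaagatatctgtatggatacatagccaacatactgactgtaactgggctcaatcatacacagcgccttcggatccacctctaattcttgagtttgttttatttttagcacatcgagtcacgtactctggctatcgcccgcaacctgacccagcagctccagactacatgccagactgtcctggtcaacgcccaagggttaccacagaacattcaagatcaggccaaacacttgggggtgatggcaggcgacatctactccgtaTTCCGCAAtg
Plin2 distal, chr4:86651966-86652265, - strand: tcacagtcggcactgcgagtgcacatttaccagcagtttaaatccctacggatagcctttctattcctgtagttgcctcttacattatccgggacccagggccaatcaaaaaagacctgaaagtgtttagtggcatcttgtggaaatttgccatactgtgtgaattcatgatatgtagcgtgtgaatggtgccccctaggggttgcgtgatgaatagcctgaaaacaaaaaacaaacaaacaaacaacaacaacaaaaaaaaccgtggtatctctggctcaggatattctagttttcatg
Plin4 upstream, chr17:56111189-56111388, - strand: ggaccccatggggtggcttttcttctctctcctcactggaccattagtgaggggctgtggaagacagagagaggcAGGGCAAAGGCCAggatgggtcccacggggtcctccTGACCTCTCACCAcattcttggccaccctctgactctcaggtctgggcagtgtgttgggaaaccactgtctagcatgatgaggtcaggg
The Plin1 stretch holds 3 DR1 matches, each with 3 mismatches. The Plin2 upstream stretch holds 2, of which the site AGGGCAAAGTTCA on the plus strand has 2 mismatches, and the Plin4 stretch holds 2 that face each other, with 2 mismatches each. A match describes the letters only and was not tested for binding.

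BAT samples held 10115267 to 27500738 reads in peaks in flox and 6336670 to 13821838 in AKO. iWAT samples held 4237080 to 6691161 in flox and 4066720 to 4420019 in AKO. The median SE of a member's log2 fold change was 0.19 in BAT and 0.17 in iWAT. The deposited values, called normalised reads here, are the reads of each peak scaled to equal depth by a size factor for every sample. In BAT the first principal component (PC1) took 55.6% of the variance and set the deepest library, flox replicate 1, against the shallowest, AKO replicate 2, which stood apart. Its scores were -98.2, -41.8 and 14.6 in flox and -0.617, 112 and 13.5 in AKO. PC1 thus went in part with genotype, and as a covariate it can take up part of a genotype difference. The methods of the study use PC1 as a covariate in BAT, so BAT fold changes are given with it and, where it matters, without it and without AKO replicate 2. At the targeted gene Smarcd1, an intron peak (chr15:99704113-99704521) held 136, 201 and 185 normalised reads in flox and 23.7, 57.9 and 26.9 in AKO BAT. limma did not call even this peak, with a log2 fold change of -2.98 and an adjusted p of 0.269. The iWAT table lists only a promoter peak of Smarcd1, which checks nothing. In BAT, the summed peaks of the 5 brown or beige adipocyte markers held 16501 to 18942 normalised reads in flox and 10642 to 11411 in AKO, and those of the 6 adipocyte markers 23080 to 24182 in flox and 16724 to 21271 in AKO. Within the adipocyte list, mean summed reads were higher in AKO at Adipoq (1009 in flox, 1360 in AKO) and Lep (2189 in flox, 2374 in AKO). They were lower in AKO at Fabp4, Pparg, Lpl and Cebpa. Every marker of both lists had a peak in both tables. All 3 AKO samples lay below all 3 flox samples at 27 of 64 brown or beige marker peaks and above them at 0, and at 21 and 3 of 66 adipocyte marker peaks. The 27 endothelial marker peaks gave 1 and 2, and the 11 fibroblast or preadipocyte peaks 0 and 4. The 7 muscle peaks gave 3 and 0, and the 6 epithelial peaks 1 and 2. The 2 macrophage peaks and the 1 lymphocyte peak gave 0 and 0. Over all BAT peaks the shares were 8.84% below and 8.77% above. Endothelial sums overlapped (2391 to 2590.0 in flox, 2308 to 2681 in AKO), and so did macrophage and fibroblast sums, while muscle sums (1441 to 1641 in flox, 1207 to 1439 in AKO) and epithelial sums (733 to 784 in flox, 696 to 729.9 in AKO) did not. The defining markers Cd68, Csf1r and Ptprc of macrophages, Cd3e, Cd79a, Ms4a1 and Cd4 of lymphocytes, Myod1 and Ckm of muscle and Krt14, Krt18 and Krt5 of epithelium had no BAT peak. The part of these markers, of depth and of PC1 in the results on the members was not tested. In whole tissue, fewer adipocyte nuclei and less open chromatin per nucleus cannot be told apart.

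In BAT, the peaks of the CIDE and perilipin genes lay mostly lower in AKO than in flox, and no single peak passed the test. Summed over its peaks, each of Cidea, Cidec, Plin1, Plin2 and Plin3 had an AKO mean 17.8% to 27.7% below flox with no overlap between the groups, while Plin4, Plin5 and Cideb overlapped. All 3 AKO samples lay below all 3 flox samples at 14 of 26 member peaks, in Cidea, Cidec, Plin1, Plin2, Plin3 and Plin4, beside 8.84% of all BAT peaks. They lay above at 0, beside 8.77% of all. The members held more reads than BAT peaks at large, with median flox means of 500 and 122 normalised reads. The part of read level in these counts was not tested. The log2 fold change (AKO minus flox, on log2 of normalised reads + 1) was negative at 20 of 26 peaks, beside 49.1% of all, with a median of -0.19 over the members and 0.0067 over all peaks. Without the PC1 covariate it was negative at 22 of 26, beside 51.7% of all, with medians of -0.37 and -0.014.

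limma, fitted over all BAT peaks with p-values adjusted by Benjamini-Hochberg and called below 0.1, called 0 members lower and 0 higher, as it called 0% of all peaks in either direction, and the smallest adjusted p of a member was 0.474. At an unadjusted p under 0.05 it gave 3 members lower (2 peaks of Plin2 and 1 of Plin3), beside 5.59% of all peaks, and 0 higher, beside 3.46%. DESeq2 and edgeR on the recovered reads, also with PC1, called 0 members either way, beside 0.217% of all peaks lower and 0.0803% higher in DESeq2, and 0.114% and 0.029% in edgeR. DESeq2 without PC1, an alternative added after the data were seen, called 3 members lower, beside 0.517% of all, and 0 higher, beside 0.512%. These 3 were the Cidea peak 14.6 kb upstream, the Plin1 start peak and the Plin2 peak 20 kb upstream, with DESeq2 adjusted p of 0.074, 0.0752 and 0.0774, and the number called was 0 without flox replicate 1, flox replicate 2, AKO replicate 2 or AKO replicate 3 and 3 without flox replicate 3 or AKO replicate 1. With AKO replicate 2 left out, which can only add peaks without overlap, AKO lay lower at 14 of 26, beside 12.9% of all peaks, and the median was -0.28 without PC1 and -0.19 with it.

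**Figure D1:**
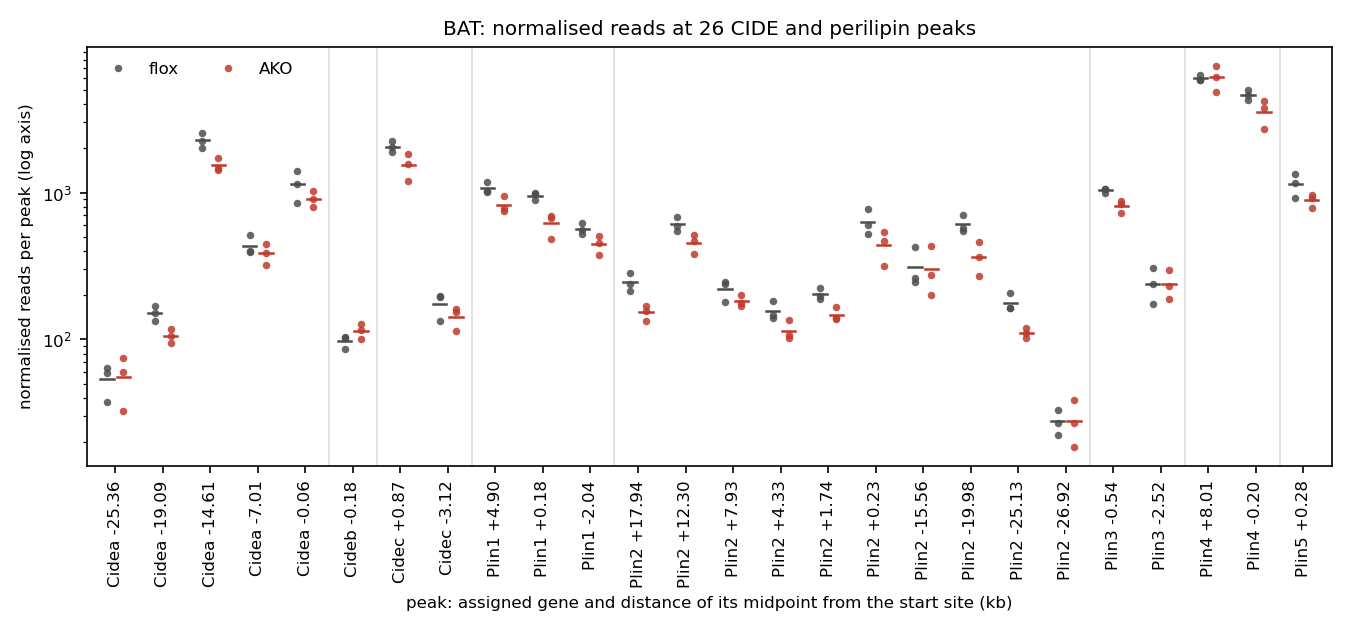
Normalised reads (log axis) at the 26 BAT member peaks, in order of gene, each labelled with the distance of its midpoint from the start site in kb. Points are the 3 flox (grey) and 3 AKO (red) mice and bars their means. AKO points lie below all flox points at 14 peaks, and the 2 Plin4 peaks hold the most reads.

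Cidea, the droplet-fusing protein of brown and beige adipocytes, had 5 peaks in BAT, on chromosome 18 from 25.4 kb upstream to its start. Summed over them, BAT held 4722, 3979 and 3455 normalised reads in flox and 3379, 2700.1 and 2908 in AKO, so that every AKO sample lay below every flox sample and the AKO mean was 26.1% lower. The widest peak (chr18:67327513-67330389, 2877 bases, 14.6 kb upstream of the start) ranked 65 of 58558 BAT peaks by flox reads. It held 2564, 2249 and 2014 in flox and 1728, 1429 and 1463 in AKO. The groups did not overlap there, with an AKO mean 32.3% below flox, but the log2 fold change was -0.37 (SE 0.18, 95% interval -0.80 to 0.06, limma adjusted p = 0.601). Without PC1 it was -0.56. A small peak 19.1 kb upstream, with 168, 151 and 133 in flox and 106, 94.6 and 117 in AKO, also had every AKO sample below flox, with a log2 fold change of -0.30 (SE 0.18, limma adjusted p = 0.654). Both overlap B430212C06Rik, an annotated noncoding transcript upstream of Cidea. The start peak, the BAT peak 7.01 kb upstream and all Cidea peaks in iWAT overlap it as well. ATAC-seq cannot say which of the genes a region serves.

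At the start of Cidea the groups overlapped. The start peak (chr18:67342931-67344070, over exon 1 and intron 1) held 1412, 1149.8 and 847 normalised reads in flox and 1023, 794 and 911 in AKO, a log2 fold change of 0.08 (SE 0.20, limma adjusted p = 0.929) with PC1 and -0.30 without it. Its sign thus turned with the covariate. The peaks 7.01 kb and 25.4 kb upstream, the latter within Impa2, also overlapped, with log2 fold changes of 0.11 and -0.03 with PC1 and -0.18 and 0.0076 without it.

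Cideb, the liver member of the family, had only a promoter peak in BAT (chr14:55758423-55758779), with 103, 103 and 86.7 normalised reads in flox and 99.997, 127 and 115 in AKO. It was the lowest of the start peaks per kb of peak and the groups overlapped, with a log2 fold change of 0.19 (SE 0.21, limma adjusted p = 0.813). It was also the gene whose summed AKO mean lay above flox, by 16.9%.

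Cidec, which drives the single large droplet of white adipocytes, had a wide start peak in BAT (chr6:113433655-113436119, over exons 1 and 2) that ranked 120 of 58558. It held 2252, 2033 and 1876 normalised reads in flox and 1837, 1197 and 1557 in AKO. Every AKO sample lay below every flox sample, with AKO replicate 1 close under the lowest flox sample and AKO replicate 2 far lower. The log2 fold change was -0.13 (SE 0.19, limma adjusted p = 0.856) with PC1 and -0.44 without it. The second peak, 3.12 kb upstream, overlapped between groups, with log2 fold changes of 0.11 and -0.28.

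Plin1, the perilipin that gates lipolysis in adipocytes, was the only member with every one of its peaks (3 of 3) without overlap in BAT. Summed over them, Plin1 held 2735, 2609 and 2420.2 in flox and 2138, 1613 and 1911 in AKO, an AKO mean 27.1% below flox. The start peak (chr7:79732154-79733044) held 998, 972 and 890.0 normalised reads in flox and 689, 485 and 675 in AKO. The groups stood well apart, the AKO mean was 35.3% lower, and the log2 fold change was -0.38 (SE 0.19, 95% interval -0.82 to 0.06, limma adjusted p = 0.596), or -0.64 without PC1. The upstream peak whose sequence is given above (chr7:79734580-79735054) held 553, 617 and 524 in flox and 508, 375 and 451 in AKO, with a log2 fold change of -0.17 (SE 0.20, limma adjusted p = 0.821). The peak over intron 3 to intron 4 (chr7:79727202-79728555) held 1185, 1019.8 and 1006 in flox and 941, 753 and 785 in AKO, with a log2 fold change of -0.20 (SE 0.18, limma adjusted p = 0.77). Upstream, AKO replicate 1 (508) lay just under flox replicate 3 (524), so that the gap between the groups was narrow there.

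Plin2, the perilipin of most cell types, had the most peaks, 10 in BAT, from 26.9 kb upstream to 17.9 kb downstream of its start. AKO lay below flox without overlap at 6 of them, and 9 of 10 log2 fold changes were negative with PC1 and 10 of 10 without it. The summed reads were 3609, 2963 and 2992 in flox and 2735, 2047 and 2129 in AKO, an AKO mean 27.7% below flox. The peak 17.9 kb downstream (chr4:86651785-86652448), beyond the end of the principal transcript, had the smallest p-value of all BAT members. It held 239, 213 and 283 normalised reads in flox and 168, 156 and 133 in AKO. Every AKO sample lay below every flox sample, with a mean 37.7% lower and a log2 fold change of -0.77 (SE 0.22, 95% interval -1.29 to -0.25, limma adjusted p = 0.474).

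On the upstream side of Plin2, the peak 25.1 kb away (chr4:86695012-86695359) held 207, 164 and 163 in flox and 119.6, 110.1 and 103 in AKO, with every AKO sample below flox and a log2 fold change of -0.54 (SE 0.20, limma adjusted p = 0.522). The peak 19.98 kb upstream (chr4:86689440-86690642), which holds the DR1 pair shown above, had 704, 576 and 548 normalised reads in flox and 459.8, 272 and 367 in AKO. Its AKO mean was 39.9% lower, the largest such share among the 26 BAT members, and its log2 fold change of -0.37 (SE 0.20, limma adjusted p = 0.617) with PC1 went to -0.76 without it. The start peak of Plin2 (chr4:86669376-86670274) was less clear. It held 769, 605 and 523 in flox and 540.2, 315 and 470.1 in AKO, where flox replicate 3 lay below AKO replicate 1, and its log2 fold change was -0.05 (SE 0.18, limma adjusted p = 0.95) with PC1 and -0.53 without it. The narrow peak 26.9 kb upstream held few reads, 22.5, 33.3 and 27.2 in flox and 18.6, 38.6 and 26.9 in AKO, and its log2 fold change was -0.46 (95% interval -1.11 to 0.20) with PC1 and -0.023 without it.

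Plin3, the perilipin that moves from the cytosol to new droplets, held 1060.2, 1064 and 989.6 normalised reads in flox and 835, 724 and 876 in AKO at its start peak in BAT (chr17:56290060-56292040). The flox samples were close to each other and every AKO sample lay below them, by 21.8% on average, with a log2 fold change of -0.23 (SE 0.18, limma adjusted p = 0.731). The peak 2.52 kb upstream, with 175, 238 and 305 in flox and 189.7, 296 and 230.3 in AKO, overlapped fully between groups. Its log2 fold change turned on the covariate, at -0.49 (SE 0.19, limma adjusted p = 0.531) with it and 0.0071 without it, or -0.16 without both PC1 and AKO replicate 2.

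Plin4, an adipocyte perilipin of small new droplets, had the most open chromatin of the family. Its peak over exons 6 to 9 and beyond the 3′ end (chr17:56099315-56104268, 4954 bases, reaching into Hdgfl2) ranked 2 of 58558 BAT peaks, and its start peak (chr17:56108598-56111410) ranked 5. The 3′ peak held 6277, 5865 and 5811 normalised reads in flox and 7267, 4849.8 and 6103 in AKO. AKO samples lay both above and below all flox samples there, and the log2 fold change was 0.24 (SE 0.20, limma adjusted p = 0.74) with PC1 and 0.0026 without it. The start peak held 5008, 4609.6 and 4286 in flox and 4175, 2716 and 3788 in AKO, with AKO below flox at each sample, and its log2 fold change was -0.09 (SE 0.19, limma adjusted p = 0.911) with PC1 and -0.40 without it. Within the same gene, the start thus lay 23.2% lower in AKO while the means of the 3′ peak differed by 1.49%, a contrast that was not tested.

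Plin5, which ties droplets to mitochondria in oxidative tissue, had a single BAT peak over its start (chr17:56116333-56117694), with 1328, 1163 and 925 normalised reads in flox and 957, 784 and 924 in AKO. AKO samples were low, but AKO replicate 1 lay above flox replicate 3, so the groups overlapped. The log2 fold change was -0.06 (SE 0.18, limma adjusted p = 0.942), and -0.35 without PC1.

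**Figure D2:**
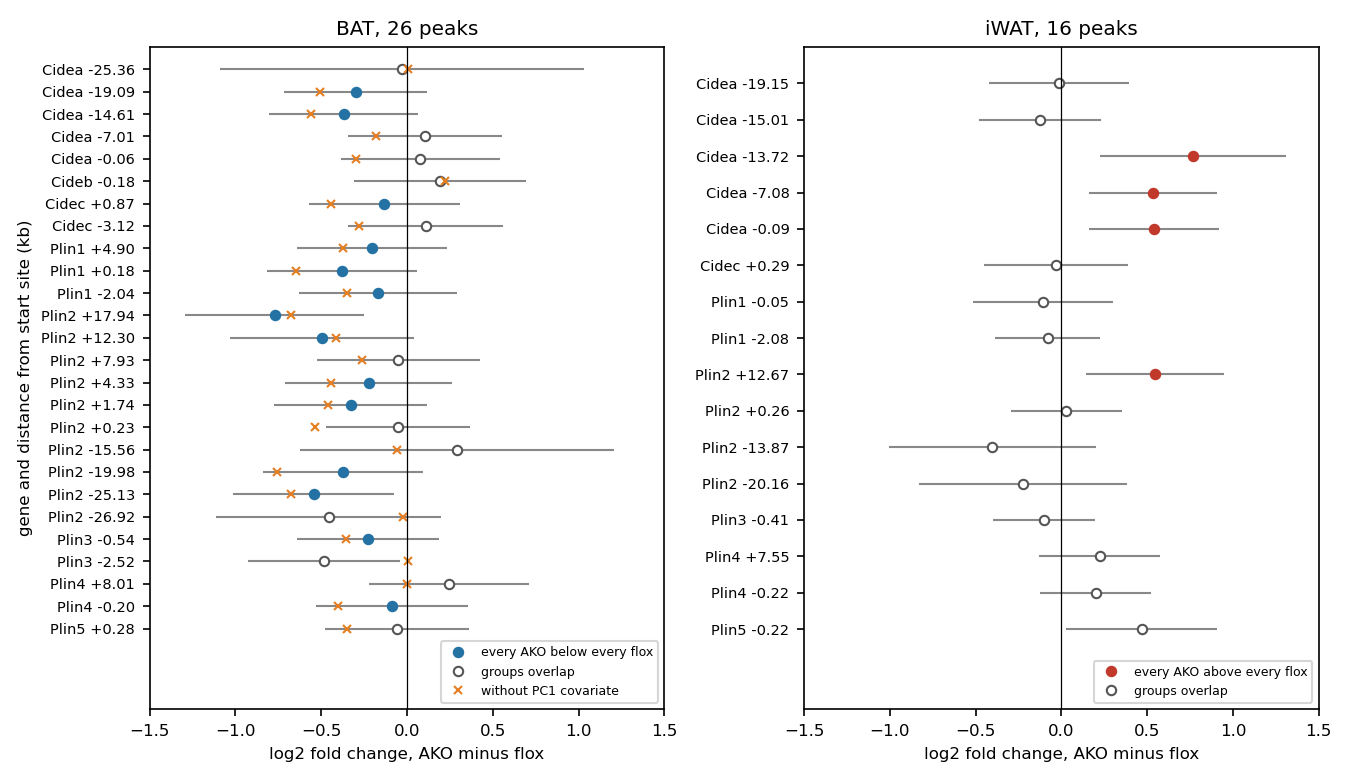
Log2 fold changes (AKO minus flox) of the 26 BAT and 16 iWAT member peaks from limma, with 95% intervals as lines, PC1 as a covariate in BAT only. Filled circles are peaks where every AKO sample lay beyond every flox sample, open circles peaks where the groups overlapped, and crosses the BAT values without PC1. In BAT 20 of 26 values are negative, and in iWAT 8 of 16.

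In iWAT of cold-acclimated mice the members were split, with Cidea higher in AKO without overlap. Summed over its peaks, the AKO mean was 29.7% above flox at Cidea, and 37.3% above at Plin5 and 16.1% above at Plin4, where the groups overlapped. All 3 AKO aliquots lay above all 3 flox aliquots at 4 of 16 member peaks, 3 of Cidea and 1 of Plin2, beside 10.6% of all iWAT peaks, and below them at 0, beside 10.3%. The log2 fold change was negative at 8 of 16, beside 50.1% of all, with a median of 0.0066. limma called 0 members lower and 0 higher, as it called 0% of all peaks in either direction, and the smallest adjusted p of a member was 0.205. At an unadjusted p under 0.05 it gave 5 members higher (3 peaks of Cidea, 1 of Plin2 and 1 of Plin5), beside 7.61% of all peaks, and 0 lower, beside 7.42%. DESeq2 called 0 members, beside 0.569% of all peaks lower and 0.493% higher. edgeR called 4 higher, beside 2.15% of all, and 0 lower, beside 2.52%. The 4 were Cidea 13.7 kb upstream (edgeR adjusted p = 0.0538), the Cidea start (0.0732), Plin2 12.7 kb downstream (0.0928) and the 3′ peak of Plin4 (0.0421).

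**Figure D3:**
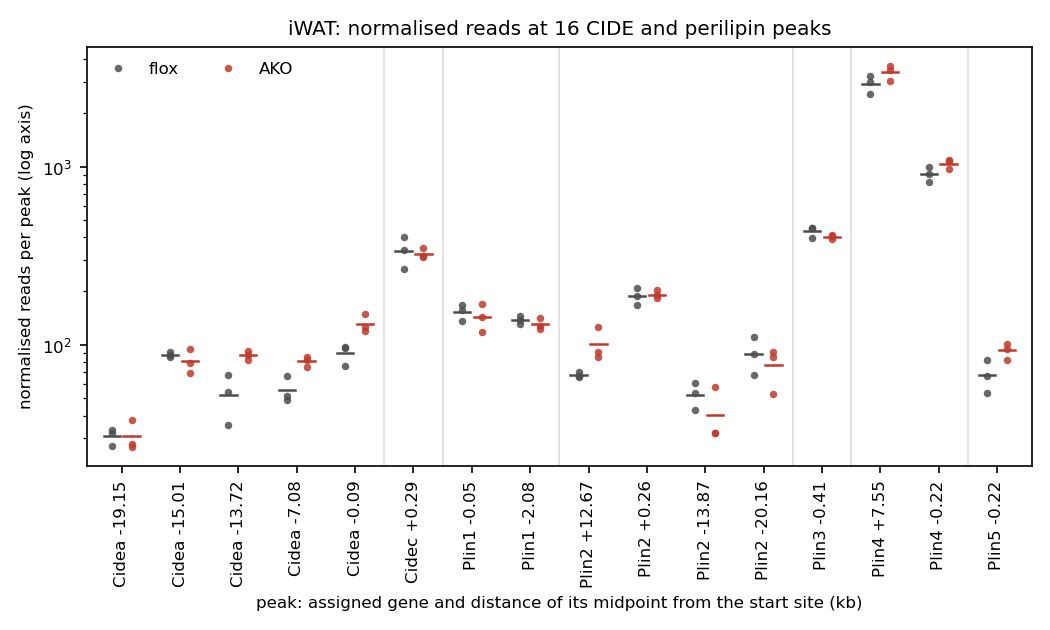
Normalised reads (log axis) at the 16 iWAT member peaks, in order of gene, each labelled with the distance of its midpoint from the start site in kb. Points are the 3 flox (grey) and 3 AKO (red) aliquots of 1 pool per genotype and bars their means. AKO points lie above all flox points at 3 Cidea peaks and 1 Plin2 peak.

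Cidea held 319, 299 and 332 normalised reads in flox and 415, 424 and 393 in AKO in iWAT over its 5 peaks, an AKO mean 29.7% above flox with no overlap. The start peak (chr18:67343050-67343891) held 97.7, 75.6 and 95.5 in flox and 119, 148 and 125 in AKO. Every AKO aliquot lay above every flox aliquot, and the log2 fold change was 0.54 (SE 0.16, 95% interval 0.16 to 0.92, limma adjusted p = 0.205). The peak 13.7 kb upstream (chr18:67329560-67330130) held 54.2, 35.6 and 68 in flox and 92.2, 82.2 and 87.7 in AKO, with flox spread widely and AKO close together, and a log2 fold change of 0.77 (SE 0.23, 95% interval 0.23 to 1.31, limma adjusted p = 0.21). The peak 7.08 kb upstream (chr18:67336321-67336648) held 49.2, 66.7 and 51.6 in flox and 81.8, 85.6 and 74.8 in AKO, a log2 fold change of 0.54 (SE 0.16, limma adjusted p = 0.205). The remaining Cidea peaks, 15.0 and 19.1 kb upstream, overlapped between groups, with log2 fold changes of -0.12 and -0.01. The brown or beige marker list, which includes Ucp1, overlapped between the groups in iWAT, where its summed peaks held 912 to 1104 normalised reads in flox and 932 to 1027 in AKO. Those of the adipocyte list held 4027 to 5214 in flox and 4161 to 4727 in AKO. Endothelial markers (4 of 5 with a peak, none for Emcn) held 766 to 855 in flox and 671 to 739.9 in AKO, and macrophage markers (3 of 5, none for Cd68 and Mrc1) 268 to 327 in flox and 175 to 239.8 in AKO, both without overlap, and their part in the iWAT results was not tested.

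Of the 4 Plin2 peaks in iWAT, the one 12.7 kb downstream of the start (chr4:86657217-86657562, over intron 7 and the coding part of exon 8) held 67, 65.6 and 70.6 normalised reads in flox and 85.3, 91.3 and 125 in AKO. AKO replicate 3 was the highest and every AKO aliquot lay above flox, with a log2 fold change of 0.54 (SE 0.17, 95% interval 0.14 to 0.95, limma adjusted p = 0.223). The Plin2 start peak held 189, 168 and 207 in flox and 182, 189.5 and 202 in AKO, almost level between genotypes (log2 fold change 0.03, 95% interval -0.29 to 0.35). Upstream, the peak 20.2 kb away overlapped (log2 fold change -0.22), as did the peak 13.9 kb away (log2 fold change -0.40), the only iWAT member without an overlapping BAT peak.

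Plin5 held 67, 53.4 and 82.6 normalised reads in flox and 101.4, 82.2 and 95.2 in AKO at its iWAT start region (chr17:56117365-56117673), with AKO replicate 2 just below flox replicate 3, and a log2 fold change of 0.47 (SE 0.19, limma adjusted p = 0.307). Plin4 again had the most reads. Its 3′ peak, 3 by rank among 39558 iWAT peaks, held 2980.3, 2553 and 3209 in flox and 3668, 3487 and 3036 in AKO, a log2 fold change of 0.22 (SE 0.15, limma adjusted p = 0.528), and its start peak 999, 815 and 908 in flox and 1069, 1083 and 968 in AKO, a log2 fold change of 0.20 (SE 0.14, limma adjusted p = 0.54). Both Plin4 peaks lay higher on average in AKO, with overlap between the groups.

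Cidec and Plin1 showed no difference beyond the spread of aliquots in iWAT. Cidec held 341, 265 and 402 normalised reads in flox and 310.1, 349 and 313 in AKO (log2 fold change -0.03, 95% interval -0.45 to 0.39). The Plin1 start peak held 157, 136 and 168 in flox and 143, 169 and 118 in AKO (log2 fold change -0.11, 95% interval -0.52 to 0.30), and the upstream peak with the DR1 matches shown above held 145, 138 and 131 in flox and 128, 122 and 142 in AKO (log2 fold change -0.08, 95% interval -0.39 to 0.23). Plin3 held 452, 399 and 453 in flox and 409, 391.6 and 412 in AKO (log2 fold change -0.10, 95% interval -0.40 to 0.19). These intervals leave room for changes of some size in either direction.

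Most places open at these genes in iWAT were open in BAT as well. By an overlap of at least 1 base, 15 of 16 iWAT members met 14 of 26 BAT members in 15 pairs, and 12 BAT peaks had no iWAT counterpart. Of the 15 pairs, 7 had negative log2 fold changes in both tables and 5 were negative in BAT and positive in iWAT, or 7 with BAT taken without PC1. When pairs sharing under 50% of either peak were dropped, 10 remained, of which 5 were negative in both and 2 of opposite sign, or 4 without PC1. The tables were normalised and fitted apart, the BAT samples are mice and the iWAT samples aliquots, and depot goes together with cold acclimation and sequencing run, so these values stand side by side with no test of their difference. In 2 of the 15 pairs the groups did not overlap in either depot and lay in opposite order, and neither of these pairs met the rule of 50%. One is the wide Cidea peak 14.6 kb upstream, with a log2 fold change of -0.37 in BAT, against 0.77 at the narrower iWAT peak on its gene-proximal side. The iWAT peak on its distal side gave -0.12. The other is the Plin2 region over intron 7 and exon 8 shown above, with -0.50 in BAT, where it held 593, 545 and 680.4 normalised reads in flox and 518, 469 and 382 in AKO, and 0.54 in iWAT.

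**Figure D4:**
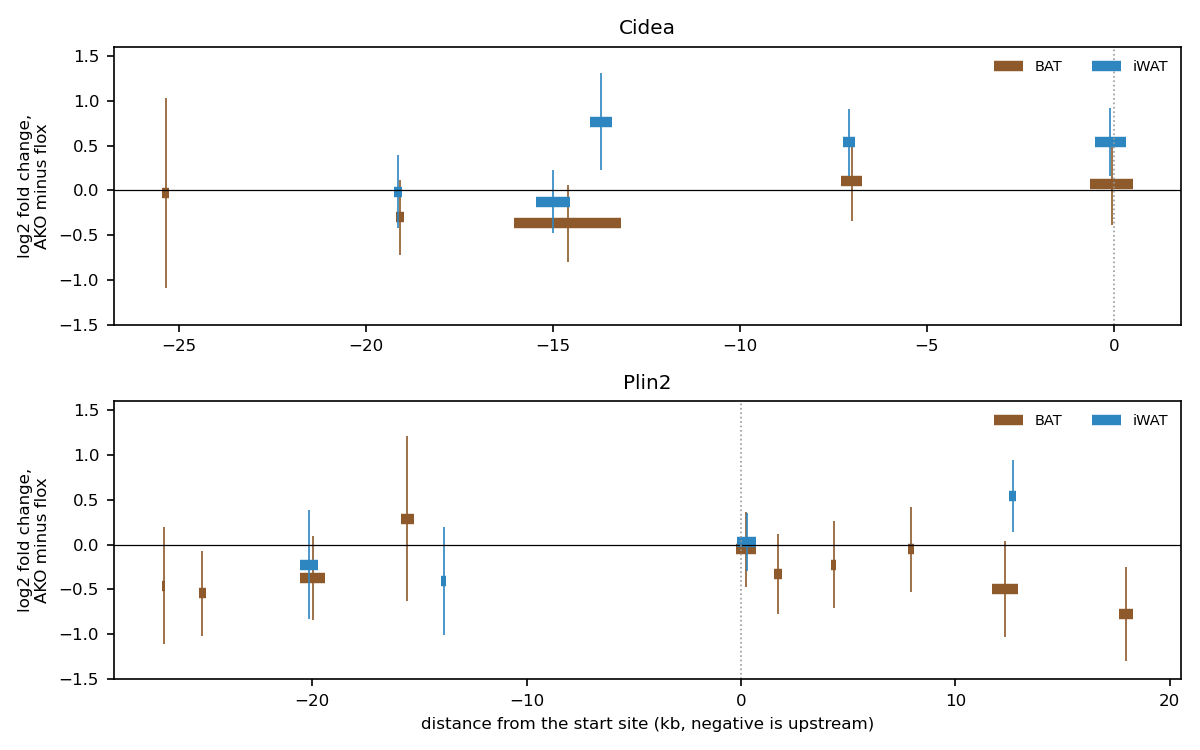
Log2 fold change (AKO minus flox, limma) against the distance from the start site in kb for the peaks of Cidea and Plin2, in BAT (brown) and iWAT (blue). Thick bars span the width of each peak and thin lines its 95% interval. At Cidea, 3 iWAT peaks lie at 0.54 or higher while no BAT peak lies above 0.11, and at Plin2 the depots part at 12.3 to 12.7 kb downstream.

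Per kb of peak, the level at the peak nearest each start in flox BAT ran, as normalised reads per kb (mean ± SD, n = 3), from Plin4 (1647 ± 129) through Plin1 (1069.7 ± 63), Cidea (997 ± 248), Plin5 (836 ± 149), Cidec (833 ± 76.6), Plin2 (703 ± 139) and Plin3 (524 ± 21.2) to Cideb (274 ± 26.7). The samples of Plin1, Cidea, Plin5, Cidec and Plin2 overlapped between each neighbour and the next, while Plin4 lay above Plin1, and Plin3 between Plin2 and Cideb, without overlap. In flox iWAT the order was Plin1 (416 ± 44.4), Plin4 (345 ± 34.9), Plin3 (291 ± 20.6), Cidec (254 ± 52.1), Plin5 (219 ± 47.4), Plin2 (217 ± 22.8) and Cidea (106 ± 14.5). There, only Plin4 over Plin3 and Plin2 over Cidea were neighbours without overlap. Cidea thus took the third place in BAT and the last in iWAT. Among all peaks of its own table by reads per kb, the Cidea start peak stood at percentile 98.1 in BAT and 16.1 in iWAT, that of Plin5 at 96.1 and 70.8, and that of Plin3 at 85.01 in both. By reads per peak, the percentiles were 97.9 and 59.7 at Cidea, 97.95 and 48.5 at Plin5, and 97.3 and 96.4 at Plin3. The place per kb thus depends on peak width, which in iWAT was 842 bases at the Cidea start and 309 at Plin5. Reads were not compared between the tables.

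Consensus motifs were counted in the 300 bases at the midpoint of each peak, on both strands. The DR1 consensus given above matched 8 of 26 member windows in BAT (30.8%), beside 32.3% of all BAT windows, and 6 of 16 in iWAT (37.5%), beside 28.5%. The EBF consensus, TCCC and GGGA with 2 free bases between and no mismatch allowed, was found in 2 of 26 (7.69%) and 2 of 16 (12.5%) windows, beside 2.40% and 1.69% of all, which for so few windows is a description only. The C/EBP consensus TTGCNNAA matched 4 of 26 (15.4%, beside 15.1%) and 4 of 16 (25%, beside 13.97%), and the NF1 consensus, TTGGC and GCCAA with 5 free bases between and at most 2 mismatches, 6 of 26 (23.1%, beside 18.1%) and 5 of 16 (31.2%, beside 16.6%). Over whole peaks the DR1 share was 69.2% of members and 49.8% of all in BAT, and 75% and 42.1% in iWAT. Member peaks were also wider than all peaks, with a median of 646.5 bases against 482 in BAT and of 706.5 against 432 in iWAT. In RefSeq promoters, which span 250 bases before to 50 after a start, 6 of 9 entries for 7 of the genes held a DR1 match, beside 24.6% of 32851 promoters. Matches overlap between motifs, and a missing match says only that these letters are not in the window.

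The rest of the droplet machinery was read from a list of 28 symbols for lipolysis, droplet formation and other surface proteins, of which 23 had peaks in each table. In BAT limma called 0 of 97 peaks, DESeq2 called 7 lower, beside 0.217% of all BAT peaks, and 0 higher, beside 0.0803%. AKO lay below flox without overlap at 22 of the 97, beside 8.84% of all, and above at 0, beside 8.77%. The smallest p-values belonged to Dgat2, an enzyme of the last step of triglyceride synthesis, with 239.8, 348 and 407 normalised reads in flox and 188, 228 and 182 in AKO and a log2 fold change of -1.09 (DESeq2 adjusted p = 0.0016), to Lpin1, which makes diacylglycerol, at -1.35 (DESeq2 adjusted p = 0.0744), and to Dgat1, of the same step as Dgat2, at -0.86 (DESeq2 adjusted p = 0.029). At Dgat2 the groups did not overlap, and at the Lpin1 and Dgat1 peaks they did. Without PC1, DESeq2 called 4 of the 97 peaks lower, and none of these 3 was among them. Their DESeq2 adjusted p was then 0.125 at Dgat2, 0.451 at Lpin1 and 0.516 at Dgat1, and their limma log2 fold changes without PC1 were -0.71, -0.69 and -0.39. Of the 4, 2 were peaks of the lipolysis genes, of which DESeq2 with PC1 called 0. Among positive values, the smallest p-values were those of Mettl7a1 (log2 fold change 0.65), Bscl2 (0.30) and a second Lpin1 peak (0.37), none of them called and all of them negative without PC1.

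In iWAT limma called 0 of 71 peaks of the list, and DESeq2 called 1 lower, beside 0.569% of all iWAT peaks, and 3 higher, beside 0.493%. AKO lay below flox without overlap at 4 of the 71, beside 10.3% of all, and above at 8, beside 10.6%. The share above was near that of all peaks. Mgll, which cleaves monoglycerides, held 54.9, 84.5 and 77.5 normalised reads in flox and 136, 126 and 144 in AKO, a log2 fold change of 0.92 (DESeq2 adjusted p = 0.00887). Lipe, the hormone-sensitive lipase, held 1077, 872 and 1067 in flox and 808, 819.7 and 742 in AKO, a log2 fold change of -0.34 (DESeq2 adjusted p = 0.0261). The other peaks named by the rule were not called by either test. They were Ptrf (0.57) and Pcyt1a (0.51) with positive and Cav1 (-0.56) and Hsd17b11 (-0.28) with negative log2 fold changes. By DESeq2, lipolytic genes thus gave called peaks of both signs in iWAT.

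Across the 6 samples of a table, the genes whose summed peaks followed Cidea most closely were Kcnk3 (Pearson r = 0.997), Rbbp8 (0.995), Rreb1 (0.994), Copb1 (0.990) and E030011O05Rik (0.989) among 15198 symbols in BAT. In iWAT they were Prkag2 (0.992), Rnf144b (0.991), Pmepa1 (0.990), Kctd15 (0.989) and 4632428C04Rik (0.988) among 12103. Of the members, Plin5 (0.961), Plin2 (0.958), Plin1 (0.942) and Cidec (0.932) followed Cidea in BAT, Plin4 (0.730) and Plin3 (0.683) less closely, and Cideb ran against it (-0.53). The median over all symbols was 0.381, and the upper decile began at 0.846. In iWAT Plin4 (0.846) came near, while Cidec (0.161), Plin2 (0.251), Plin1 (-0.34) and Plin3 (-0.48) did not, and Plin5 had too few reads for the comparison. These values describe only 6 samples of both genotypes, which also differ in depth. The part of genotype and of depth in them was not tested.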

How the data were processed

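Open chromatin was profiled by ATAC-seq in nuclei of frozen BAT (3 flox and 3 AKO mice) and iWAT (3 aliquots of 1 pool of mice per genotype). Per the study's methods and the submitters' processing notes, reads were trimmed, aligned to mm10 with BWA (version 0.7.17-r1188), deduplicated with Picard (version 2.8.14) and restricted to well mapped autosomal reads. Broad peaks were called per sample with MACS2 (version 2.1.1.20160309), peaks seen in at least 2 of 3 replicates were merged into 1 set per depot, and reads were counted per peak with bedtools (version 2.27.1). The authors deposited a signal per peak and sample, which is the read count divided by a DESeq2 (version 1.20.0) size factor. All deposited values came out as whole reads within 0.001 once multiplied back, and these reads gave the depths and the count tests. The table of BAT was told from that of iWAT by the covariate in its name, which the methods use for BAT alone. Broad merged peaks differ in width between depots, so levels were ranked per kb and within a table. Both tables also hold the authors' own fold changes and p-values, which were not used, and peaks' gene symbols and distances, which were. No per-sample column was left out (0 unused).

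limma (version 3.58.1) was fitted over all peaks of a table on log2(normalised reads + 1), with PC1 as a covariate in BAT as in the study's methods, and p-values were adjusted by Benjamini-Hochberg, two-sided, with a threshold of 0.1. DESeq2 (version 1.42.0) and edgeR's quasi-likelihood test (version 4.0.16) on the recovered reads were alternatives, in R 4.3.3. A permutation test of 3 against 3 samples cannot go below an exact p of 0.1, so none is given. limma and DESeq2 without PC1 were first run on simulated counts of independent samples. The BAT fits with PC1 and edgeR were not tested in this way. Other alternatives were pseudocounts of 0.1 and 10, a filter on a mean of 10 normalised reads, PC1 left out in BAT or added in iWAT, replicate blocks, peaks within 10 kb of a start, and each sample left out in turn. Fits of BAT that leave out PC1 together with a sample, and DESeq2 without PC1, were chosen after seeing the data. Places within genes come from GENCODE (mouse) and sequences from RefSeq's GRCm38.p6. The 4 motif consensuses are general knowledge given to the search as settings and were not derived from these data.

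Values per sample were to be given at the peak nearest each start and at the peak with the smallest p of each gene and table. Further member peaks given in full were chosen after their values were seen. The members and gene lists were chosen with earlier results of these data known.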

Additional observations from a re-analysis of the deposited data

Results flagged for a closer look

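In 2 pairs of overlapping peaks every AKO sample lay below every flox sample in BAT and above every flox sample in iWAT. At Cidea, the log2 fold change (AKO minus flox) was -0.37 at the wide BAT peak 14.6 kb upstream and 0.77 at the narrower iWAT peak within it. At Plin2, over intron 7 and exon 8, it was -0.50 in BAT and 0.54 in iWAT. The difference between the depots was not tested, since the tables were normalised apart, the iWAT samples are aliquots of 1 pool per genotype, and none of the 4 values passed limma's threshold in its own table. The overlap covers 19.8% of the BAT peak at Cidea and 28.9% of that at Plin2, under the 50% of both peaks asked of a stricter match, so that the wide BAT peaks also count reads from outside the shared stretch.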

How the results depend on the processing

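limma called 0 members in either direction under every alternative run, the replicate block included. Replicate numbers did not pair the samples, with correlations of same-numbered deviations of 0.494, 0.063 and -0.24 in BAT and -0.039, -0.05 and -0.057 in iWAT, and the replicate block gave 0 calls and medians of -0.21 in BAT and 0.0066 in iWAT. The BAT median of -0.19 was -0.37 without the PC1 covariate (-0.37 also in DESeq2), from -0.24 to -0.11 when 1 sample was left out, and from -0.46 to -0.28 without both PC1 and 1 sample. DESeq2 without PC1 called 3 BAT members lower (0 to 3 with 1 sample left out). edgeR called 4 iWAT members higher. On the lipid droplet list DESeq2 called 7 BAT peaks lower, 4 without PC1, and in iWAT 1 lower and 3 higher. Only peaks within 10 kb of a start left 8 of 17 BAT members lower and 2 of 10 iWAT members higher without overlap. Over all peaks at any distance these shares were 8.84% in BAT and 10.6% in iWAT. The medians of the members within 10 kb were -0.086 in BAT and 0.11 in iWAT. The iWAT median was 0.36 with PC1, which there separates the genotypes, and -0.0031 to 0.10 with 1 sample left out. Over whole peaks, motif matches numbered 18 (DR1), 11 (C/EBP) and 11 (NF1) in BAT and 12 (DR1) and 8 (C/EBP) in iWAT.

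Of the named peaks, 314 planned comparisons kept their direction, 3 gained a call in edgeR and 13 changed sign, none of them called. Since limma called 0 of all peaks in either table, staying uncalled says nothing about stability. In BAT, the Cidea start went to -0.30 without PC1, -0.32 in DESeq2 without PC1, -0.20 without PC1 and AKO replicate 2, and -0.13 without flox replicate 3. With a sample left out and PC1 kept, values ran to 0.17 at the Cidea start and from -0.096 to 0.37 at Cideb. They ran from -0.14 to 0.062 at the Plin2 start and from -0.19 to 0.075 at the Plin4 start. Where the sign changed, flox replicate 3 was left out. Without both PC1 and AKO replicate 2, the Plin2 start was at -0.31 and the Plin4 start at -0.22. Without PC1 the upstream Plin3 peak was at 0.0071. In iWAT with PC1, Cidea 7.08 kb upstream was at -0.89, the Plin3 start at 0.32 and the Plin4 3′ peak at -0.50. Cidec was at 0.11 without flox replicate 3, the Plin1 start at 0.024 without AKO replicate 3, and the Plin2 start at -0.051 without flox replicate 2 and -0.012 without AKO replicate 3. The cause was not tested. Depth as a limit was not tested.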
